A study of Homo sapiens with 2 samples.

Results

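MUC5B, CD24, CEACAM6 and CDCP1 encode an epithelial mucin and 3 surface glycoproteins, and their transcript levels were compared between unmodified A549 cells (titled Control by the submitters, WT in the table and here) and A549 cells lacking NAT10. A549 is an established human lung adenocarcinoma line, and NAT10 is an enzyme that acetylates cytidines of RNA to N4-acetylcytidine (ac4C). The knockout (NAT10-KO) cells were 1 clone, made with CRISPR/Cas9 and 2 guides, selected with puromycin and grown from a single cell. The labels name no treatment for either group, and there was 1 library per group, made from total RNA. The deposited columns are named WT-input and NAT10-KO-input, shortened here to WT and NAT10-KO. The 4 genes were chosen by name with their levels in these same libraries already known, so each difference below is a description and carries no test. They were 4 of the 1415 genes in the deposited table, whose smallest log2 ratio in size was 0.99. The values are RPKM, reads scaled by gene length and library size. Every error is a 95% interval that covers the counting of reads only, since no spread between libraries could be measured. A difference between the groups cannot be told apart from a difference between this clone and other A549 cells. In bulk RNA, fewer cells with a transcript and less of it per cell cannot be told apart either.

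Mucins are large secreted or membrane-bound glycoproteins, dense in sugar chains, that hydrate and shield epithelia. MUC5B is a gel-forming mucin of the airway. CD24 and CEACAM6 are held in the outer membrane by a glycolipid (GPI) anchor, CD24 as a very short, heavily glycosylated peptide that binds selectins and Siglec-10, and CEACAM6 as an adhesion molecule of the immunoglobulin superfamily. CDCP1 spans the membrane, is cut by serine proteases and is phosphorylated by kinases of the SRC family.

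The effective library sizes behind the RPKM values were 6077933 reads for WT and 5474964 reads for NAT10-KO. The 4 transcripts together took 3860 WT reads (0.0635% of the library) and 857 NAT10-KO reads (0.0157%). NAT10 itself was not analysed here, and of 12 markers fixed for lung adenocarcinoma epithelium 0 were in the table. Neither the knockout nor the cell type was therefore checked here on its own transcripts. The study itself reports lower NAT10 mRNA and protein and lower ac4C in its knockout cells. It also states that its cell lines were identified by short tandem repeats (STR). Of 15 markers of fibroblasts, leukocytes, endothelium and ciliated cells, 1 was listed, COL1A1, with 30 WT reads and 12 NAT10-KO reads.

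All 4 transcripts were lower in NAT10-KO by more than 1 on the log2(RPKM + 1) scale. The background for this count is 19.4% of all 1415 listed genes, but low genes seldom pass on this scale. Among the 127 listed genes with a mean RPKM of both libraries of at least 5, a limit chosen after seeing the data and one that the 4 pass, 54.3% were lower by more than 1. In that set 42 of the 56 protein-coding genes were lower in NAT10-KO by any amount. When 5 RPKM was added before the log2 step, MUC5B was at -0.98 and 3 of the 4 were lower by more than 1.

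**Figure D1:**
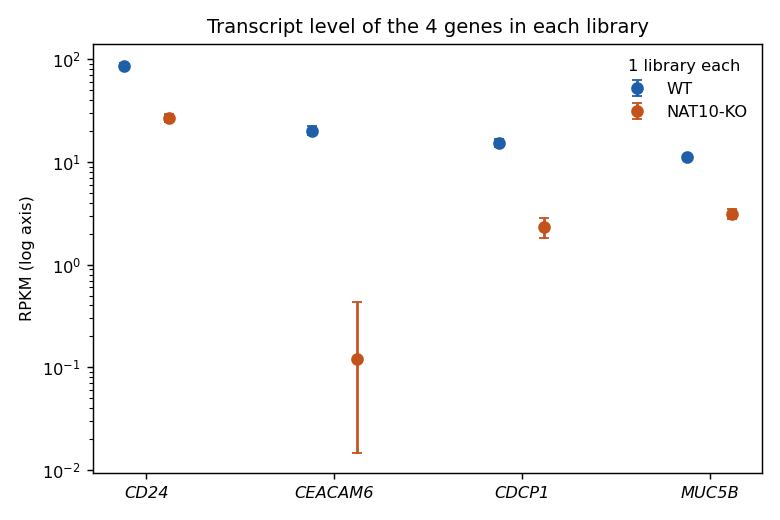
RPKM on a log axis for each gene in the WT library (blue) and the NAT10-KO library (orange), with 95% Poisson counting intervals as bars. Each orange point lies below its blue point, and CEACAM6 moves from 20.2 to 0.120 RPKM while CD24 moves from 86.6 to 26.7 RPKM.

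MUC5B (ENSG00000117983) lies on chromosome 11, 1223066 to 1262172 on GRCh38, plus strand, with 18598 exonic bases. Its level was 11.1 RPKM in WT (10.5 to 11.7, from 1250 reads) and 3.14 RPKM in NAT10-KO (2.81 to 3.51, from 320 reads). The counting intervals of the libraries did not overlap, and the NAT10-KO level was 3.52-fold lower. The table holds only genes past a fold limit. At these read numbers non-overlap follows from that limit, here and for CD24 and CDCP1 below. The log2 ratio of RPKM was -1.82, with an interval from -2.00 to -1.64, and the difference in log2(RPKM + 1) was -1.54.

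The antisense gene MUC5B-AS1 (ENSG00000255177, minus strand) showed a difference of the same size. It has 2 exons, at 1242261 to 1242638 and 1249621 to 1249676, and both lie inside the 10893-base exon of MUC5B from 1240851 to 1251743. Its level was 27.3 RPKM in WT, from 72 reads, and 7.58 RPKM in NAT10-KO, from 18 reads. The antisense RPKM was thus 2.47 times that of MUC5B in WT and 2.41 times in NAT10-KO. All 434 exonic bases of MUC5B-AS1 are also exonic in MUC5B, and the handling of strand is not given in the sources used here, so reads of these genes cannot be told apart in that stretch.

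**Figure D2:**
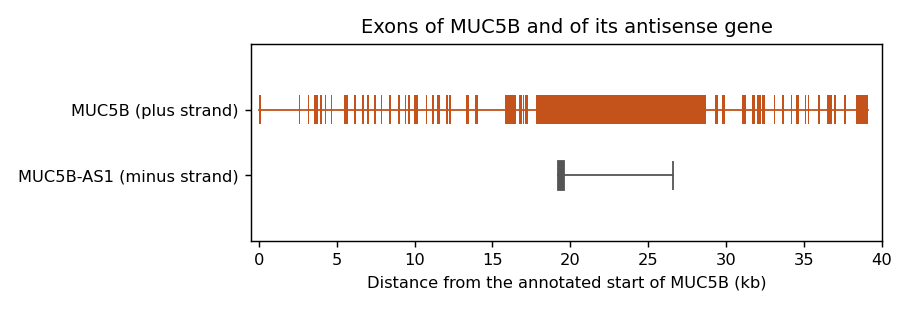
Exons (boxes) of MUC5B and MUC5B-AS1 by distance in kb from the annotated start of MUC5B. Both boxes of the antisense gene, 378 and 56 bases long, fall under the large central exon of MUC5B.

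CD24 (ENSG00000272398) lies on chromosome 6, 106969831 to 106975627, minus strand, with 3097 exonic bases. It was the highest of the 4 in both libraries, at 86.6 RPKM in WT (82.5 to 91.0, from 1631 reads) and 26.7 RPKM in NAT10-KO (24.3 to 29.3, from 453 reads). The intervals did not overlap, and the level was 3.24-fold lower in NAT10-KO. The log2 ratio of RPKM was -1.70, with an interval from -1.85 to -1.55. By RPKM, CD24 stood at position 6 of the 1415 genes in WT and at position 17 in NAT10-KO. The annotation holds 3 processed pseudogenes of CD24, and the handling of reads with several positions is not given in the sources used here, so the level of CD24 is uncertain to that extent.

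CEACAM6 (ENSG00000086548) lies on chromosome 19, 41750977 to 41772208, plus strand, with 3052 exonic bases. It was at 20.2 RPKM in WT (18.2 to 22.3, from 374 reads) and at 0.120 RPKM in NAT10-KO (0.0145 to 0.432, from 2 reads). The NAT10-KO value lay under the 0.180 RPKM that 3 reads would give for this gene in that library. The log2 ratio of RPKM was -7.40, and with 2 reads on one side its interval was wide, from -10.45 to -5.53. The difference in log2(RPKM + 1) was -4.24, the third largest drop among the 1415 genes. Without a pseudocount CEACAM6 stood at position 183, just after the 182 genes listed at 0 in NAT10-KO. A gene named AC243967.1 on the same strand shares 172 exonic bases with CEACAM6, 5.64% of its exonic length.

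CDCP1 (ENSG00000163814) lies on chromosome 3, 45082278 to 45146422, minus strand, with 6507 exonic bases. Its level was 15.3 RPKM in WT (14.1 to 16.6, from 605 reads) and 2.30 RPKM in NAT10-KO (1.83 to 2.86, from 82 reads). The intervals did not overlap, and the level was 6.65-fold lower in NAT10-KO. The log2 ratio of RPKM was -2.73, with an interval from -3.08 to -2.40, and the difference in log2(RPKM + 1) was -2.30.

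The order of the levels differed between the libraries. In WT it ran CD24, CEACAM6, CDCP1, MUC5B, and no neighbours in this order had overlapping counting intervals. In NAT10-KO it ran CD24, MUC5B, CDCP1, CEACAM6. There the intervals of MUC5B and CDCP1 did not overlap with those of CD24 or CEACAM6, and the MUC5B level was 1.37 times the CDCP1 level. The lower limit of MUC5B (2.81 RPKM) lay just under the upper limit of CDCP1 (2.86 RPKM), so these neighbours were not separated by counting error. The sizes of the log2 ratios also differed within the group. MUC5B and CD24 were 0.12 apart with overlapping intervals, CDCP1 was further down than CD24 by 1.04, and CEACAM6 was further down than CDCP1 by 4.66, with separate intervals in both cases.

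**Figure D3:**
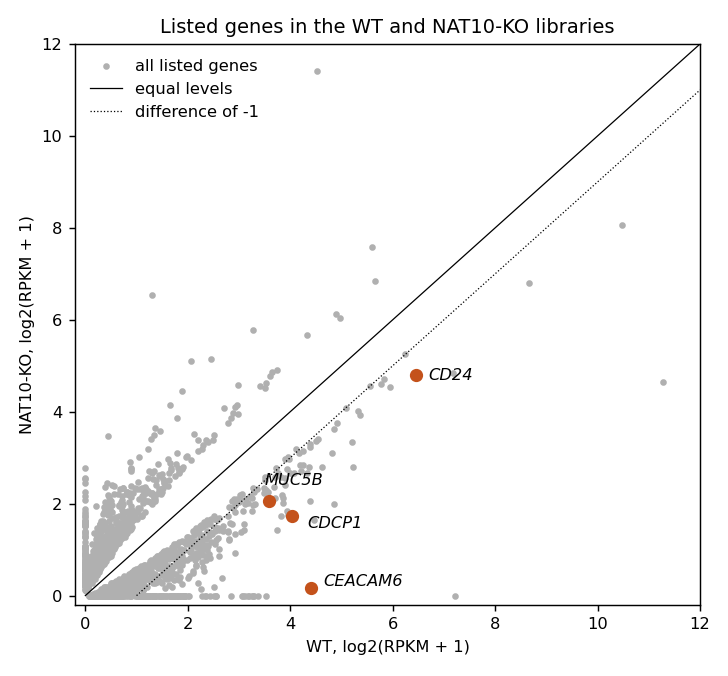
Level of the 1415 listed genes in WT (x axis) and NAT10-KO (y axis), each as log2(RPKM + 1), with the 4 genes in orange, a solid line for equal levels and a dotted line for a difference of -1. The empty band along the solid line reflects that the table holds only genes past a fold limit. The band closes toward low levels, where adding 1 RPKM shrinks the differences. All 4 genes lie below the dotted line.

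The study cites earlier work that ac4C usually lies in repeats of triplets that begin with C, and the longest such repeat in the coding sequence of each gene is shown here, with each leading C in capitals. The sequences come from the longest complete coding sequence per gene in GENCODE release 29 on GRCh38, and are given 5′ to 3′ on the coding strand. Untranslated regions were not searched, though the study places ac4C of wild-type A549 cells mainly in the 3′UTR and coding sequence. For CD24 the search covered 387 of the 825 bases of the transcript used.
MUC5B, chr11:1229778-1230016, across an exon junction: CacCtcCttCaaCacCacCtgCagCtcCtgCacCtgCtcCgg
CDCP1, chr3:45110676-45110711: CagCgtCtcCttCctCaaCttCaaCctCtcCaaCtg
CEACAM6, chr19:41761265-41761294: CtcCatCtcCagCaaCaaCtcCaaCccCgt
CD24, chr6:106971670-106971681: CttCtgCatCtc

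The study writes the repeat as 4 triplets, and each of the 4 genes held that form at least 1 time. The length of the longest run differed between the genes. The run was 14 triplets in MUC5B, 12 in CDCP1, 10 in CEACAM6 and 4 in CD24. Among 19459 protein-coding genes, a run at least as long was found in 3.19% for MUC5B, 6.24% for CDCP1, 13.6% for CEACAM6 and 95.04% for CD24. Long coding sequences have more room for a run, and that of MUC5B has 17286 bases against 387 in CD24. Per kilobase, places with 4 C in a row at a spacing of 3 bases numbered 63.6 in MUC5B, a density reached by 0.473% of genes. The same density was 19.1 in CDCP1, 17.4 in CEACAM6 and 5.17 in CD24, beside a median of 9.19 over all genes. The median over the 488 listed protein-coding genes that were lower in NAT10-KO was 10.7, and over the 306 that were higher it was 11.1. A match is a run of letters and not a measured acetylation site. The study measured ac4C in wild-type and NAT10-KO A549 cells by antibody pull-down and sequencing (acRIP-seq), which was not analysed here. A supplementary gene list of the study holds MUC5B and not CD24, CEACAM6 or CDCP1. That list is titled as genes of decreased expression, but its length equals the number of genes the study reports with reduced modification. It also holds MYH11, which was higher in NAT10-KO here, at 0.664 RPKM in WT and 1.70 RPKM in NAT10-KO. The title therefore does not hold for all its genes, though MUC5B was lower.

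The bases before the start sites of CD24, CEACAM6 and CDCP1 are shown as well, from RefSeq on GRCh38.p14. A promoter was matched for 3 of the 4 genes. Each stretch is 5′ to 3′ on the strand of the gene and leaves out bases that GENCODE places in an exon. Capitals mark matches, on either strand, to the GC box, the TATA box and the ETS core, whose letters are given after the sequences.
CD24, chr6:106975628-106975877: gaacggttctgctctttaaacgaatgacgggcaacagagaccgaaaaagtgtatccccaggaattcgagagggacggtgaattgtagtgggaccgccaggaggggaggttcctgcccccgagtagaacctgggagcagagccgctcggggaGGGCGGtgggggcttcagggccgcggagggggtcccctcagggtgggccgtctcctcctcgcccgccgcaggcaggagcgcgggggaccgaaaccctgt
CEACAM6, chr19:41755280-41755420: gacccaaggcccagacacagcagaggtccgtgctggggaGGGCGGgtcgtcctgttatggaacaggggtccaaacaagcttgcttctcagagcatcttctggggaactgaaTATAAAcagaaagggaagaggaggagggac
CDCP1, chr3:45146423-45146628: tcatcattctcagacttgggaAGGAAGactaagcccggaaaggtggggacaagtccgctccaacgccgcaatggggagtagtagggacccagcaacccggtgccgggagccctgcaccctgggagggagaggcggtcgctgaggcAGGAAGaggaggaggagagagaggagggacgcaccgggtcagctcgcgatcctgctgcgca

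Over the 250 bases before a start site, the GC box (letters GGGCGG) was found in each of the 3 genes, for CDCP1 only in the part not shown, and in 42.6% of the 35116 promoters searched. The TATA box (letters TATAAA) was found in CEACAM6 alone of the 3, and in 10.7% of promoters. In the part not shown, CEACAM6 also held the E box (letters CACGTG), which 6.34% of promoters hold. The ETS core (letters AGGAAG) was found in CDCP1 alone of the 3, and in 28.7% of promoters. The AP-1 site (letters TGANTCA) was in none of these windows, beside 6.57% of promoters. For CD24 the table gives 3 start sites, and the GC box stood before 2 of them. Of the 5 motifs searched, only the GC box was therefore found in all 3 genes. The sequences were not compared in any other way, and the matches are descriptions only.

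Related genes were taken from 9 lists that held 220 genes besides the 4, and 17 of those 220 were in the table, 11 lower and 6 higher in NAT10-KO, beside 57.0% lower among all listed genes. None of the 17 had a WT RPKM of 10 or more. By more than 1 in log2(RPKM + 1), 3 were lower and 1 was higher, beside 19.4% lower and 13.4% higher by that much among all listed genes. The table holds 3.99% of all annotated protein-coding genes, so most members of any list lie outside it.

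Of 23 mucin genes, 3 were listed. MUC16, a membrane-bound mucin, had 20 WT reads and 1 NAT10-KO read, and MUC2, a gel-forming mucin in the same cluster as MUC5B, had 6 and 18 reads. The log2 ratio of MUC2 was 1.74, with an interval from 0.34 to 3.36, in the opposite direction to MUC5B. The levels of MUC16 and MUC2 stayed under 0.3 RPKM in both libraries, far below MUC5B. With MUC5B the median difference of the mucins in log2(RPKM + 1) was -0.10, beside -0.32 over all listed genes.

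Of 22 genes of the CEACAM and PSG family, CEACAM6 and CEACAM5 were listed. CEACAM5, the carcinoembryonic antigen and a neighbour of CEACAM6, had 6 WT reads and 0 NAT10-KO reads, with a log2 ratio of -0.08 at the end of its interval nearest to no change. CEACAM5 and CEACAM6 are similar in sequence, so reads could be split between them.

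Of 17 partners and proteases of CDCP1, CDCP1 itself included, the other listed gene was FYN, a kinase of the SRC family. FYN was higher in NAT10-KO, with 9 and 50 reads and a log2 ratio of 2.62 (interval 1.59 to 3.83). Among 8 ligands and partners of CD24, SIGLEC10, which encodes the receptor Siglec-10, was listed besides CD24, with 6 WT reads and 0 NAT10-KO reads. The end of the interval of its log2 ratio nearest to no change was -0.08.

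Enzymes that build sugar chains were taken as 3 lists. Of 26 genes of O-glycosylation, which starts the sugar chains of mucins, GALNT6 had 56 WT and 20 NAT10-KO reads, with a log2 ratio of -1.33 (interval -2.15 to -0.58). GALNT16 had 7 and 24 reads, with a log2 ratio of 1.93 (interval 0.67 to 3.39). Of 25 sialyl and fucosyl transferases and 28 genes of GPI anchor synthesis, 0 were in the table.

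Of 28 airway secretory genes, 3 were listed at low counts. SLPI, a secreted protease inhibitor, had 9 WT reads and 1 NAT10-KO read. TFF1, a trefoil peptide secreted with mucins, had 6 and 0 reads, and CREB3L1, a transcription factor, had 2 and 10 reads.

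Of 47 other epithelial surface antigens, 7 were listed, 5 lower and 2 higher, beside the 57.0% lower among all listed genes. CDH1 (E-cadherin) was at 8.82 RPKM in WT and 3.76 RPKM in NAT10-KO, with a log2 ratio of -1.23 (interval -1.54 to -0.93). MCAM, an immunoglobulin adhesion molecule, was at 1.04 and 4.50 RPKM, with a log2 ratio of 2.11 (interval 1.64 to 2.61). CDH1 and MCAM therefore lay on opposite sides, and the ratio of CDH1 was smaller in size than that of any of the 4 genes, with no overlap of the intervals. JAM3 had 62 WT and 24 NAT10-KO reads, TM4SF4 had 25 and 10, CD82 had 16 and 3, and NECTIN4 had 5 and 0. The tight junction gene CLDN3 had 8 WT reads and 19 NAT10-KO reads.

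**Figure D4:**
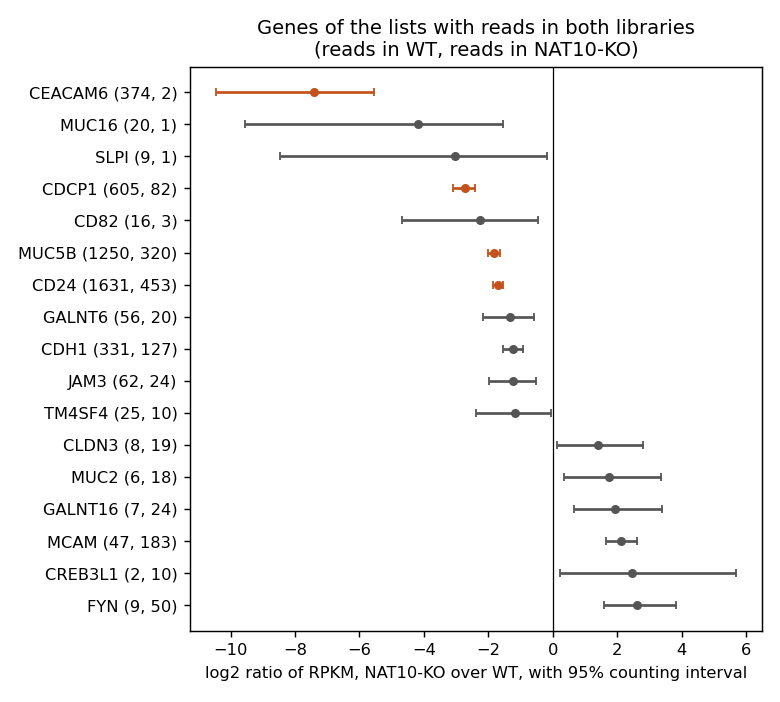
Log2 ratio of RPKM (NAT10-KO over WT, x axis) with its 95% counting interval for the genes of the lists with reads in both libraries, the 4 genes in orange, and the reads in WT and NAT10-KO in brackets. CEACAM6 lies furthest to the left at -7.40 with a wide interval, and MUC5B and CD24 have the narrowest intervals.

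Genes within 200000 bases of the 4 were looked up in the table. For MUC5B 2 of 10 annotated neighbours were listed, the antisense gene and MUC2. For CD24 it was 1 of 6, the noncoding LINC02532, at 0.448 RPKM in WT and 0.193 RPKM in NAT10-KO. For CEACAM6 it was 2 of 26, CEACAM5 and AC010616.1, the latter with 1 WT read and 7 NAT10-KO reads. For CDCP1 it was 1 of 10, TMEM158, with 56 WT and 22 NAT10-KO reads and a log2 ratio of -1.20.

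The genes most like each of the 4 were found by the distance between log2(RPKM + 1) values over the 2 libraries, among protein-coding genes of the table. For MUC5B the nearest were CXCL2, a neutrophil chemokine, at a distance of 0.27, TNFSF9 at 0.33 and THSD7A at 0.34. For CDCP1 they included PTGS2, the inducible cyclooxygenase, at 0.15 and CXCL2 at 0.34. For CD24 they were PTP4A1 at 0.52, TNS4 at 0.63 and AMIGO2 at 0.71. CEACAM6 had no close match. TCEAL8 was at a distance of 1.05 with 69 and 0 reads, NTS, which encodes neurotensin, at 1.58 with 58 and 0 reads, and CDCP1 at 1.60. A likeness over 2 libraries is a description of levels only.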

How the data were processed

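Total RNA of WT and NAT10-KO A549 cells was the starting material, and the labels name a SMARTer kit for mRNA-Seq. Samples were grouped by title, and the WT column was taken as the sample titled Control, since the study calls its unmodified cells wild type and the other sample is the NAT10 knockout. The authors deposited RPKM per gene for each library, together with their own fold changes and p-values, which were not used. The submitters' processing notes name the build hg38. The aligner, counter, annotation and strand handling are not given in the sources used here. The table is limited to genes past a fold and p-value threshold, so counts describe listed genes.

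RPKM times the exonic length in GENCODE release 29 gave whole reads (within 0.01 read) in both libraries for 1342 of 1408 genes with a length (95.3%), and the value of 1 read gave the effective library sizes. Intervals are 95% exact Poisson intervals for levels and 95% Clopper-Pearson intervals of the NAT10-KO share of a gene's reads for ratios. Without molecular identifiers, intervals and the floor of 3 reads cover counting error only. The main difference was taken in log2(RPKM + 1), a scale that pulls ratios of weakly expressed genes toward 0. No test was run, since each group had 1 library. Read recovery and intervals were tested on simulated data. Analyses used Python 3.11.15, pandas 2.3.3 and scipy 1.17.1.

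The members and gene lists were chosen with earlier results of these data known. MYH11 is named only for its place in the supplementary list of the study. Named genes are the 4 genes, listed members of the gene and marker lists, listed neighbours, and the 3 nearest protein-coding genes, of which 1 for CDCP1 is not reported here.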

Additional observations from a re-analysis of the deposited data

How the results depend on the processing

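Each of the 4 genes was lower in NAT10-KO under every setting run. Adding the same RPKM to both libraries cannot reverse a direction, so those settings could change only the size. The setting without a pseudocount was chosen after seeing the data. The difference in log2(RPKM + 1) of MUC5B (-1.54) was -1.78 with a pseudocount of 0.1 RPKM, -0.98 with 5 RPKM (no longer beyond 1), -1.81 from recovered reads with 0.5 added and -1.82 without a pseudocount. That of CDCP1 (-2.30) was -2.68, -1.47, -2.72 and -2.73 in the same order. That of CEACAM6 (-4.24) was -6.53, -2.30, -7.08 and -7.40, so its size rests on the pseudocount, as does its place among the listed genes. That of CD24 (-1.66) stayed between -1.70 and -1.53. The 274 lower and 189 higher listed genes beyond 1 became 719 and 556 with a pseudocount of 0.1 RPKM, 45 and 21 with 5 RPKM, 36 and 22 beyond 2. Requiring 10 recovered reads on average left 125 and 64, a setting that also drops genes without recovered whole reads. Requiring 1 RPKM on average left 226 and 160. A larger pseudocount or a stricter limit can only lower these counts.

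No paired analysis was possible because each group had 1 library. The spread between cultures and between clones was not measured. The 2 reads of CEACAM6 in NAT10-KO limit how far its drop can be sized.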
